A study of Mus musculus with 8 samples.

Results

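The genes examined here supply T cells with amino acids or belong to the response to their shortage. They are the cytosolic tRNA synthetases, amino acid transporters, enzymes of non-essential amino acid and one-carbon synthesis, and the ATF4 factors with their stress-response targets. They were chosen by name from a list of 49 symbols, with a mean of at least 10 normalized counts over the 8 libraries. In all, 48 were listed among the 11233 genes of the table and all 48 passed the limit, so that 48 of the 11032 tested genes were members. Cth, which encodes an enzyme of cysteine synthesis, was not listed and was not analysed here. The 48 comprised 20 synthetases, 9 transporters, 11 synthesis enzymes and 8 ATF4 factors and stress-response genes.

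The libraries came from tumor-infiltrating Foxp3EGFP-negative CD4+ conventional T (Tconv) cells, sorted into CCR8- cells (4 libraries) and CCR8+ cells (4 libraries). CCR8 is a chemokine receptor found on many tumor Treg cells and on part of the Tconv cells. Every group shared the Foxp3-EGFP-DTR genotype, in which the Foxp3 locus drives EGFP together with a human receptor for diphtheria toxin (DTx), which makes Treg cells sensitive to it. Every animal received DTx and carried a subcutaneous B16-F10 tumor, grown from a mouse melanoma cell line. Libraries from animals with intact Treg cells were not compared here, so the values describe 2 populations of Treg-depleted tumors. The comparison asks how CCR8+ Tconv cells differ from the CCR8- Tconv cells of the same kind of tumor. The labels number the replicates of each population from 1 to 4, but do not tie a number to a mouse. A change in RNA per cell and a change in the share of cells that hold the RNA cannot be told apart in such bulk libraries.

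A T cell that divides needs amino acids for protein, for nucleotides and for redox balance. It takes them up through solute carriers such as the SLC7A5-SLC3A2 exchanger, and it makes serine, glycine, aspartate, asparagine and proline itself. When an amino acid runs short, uncharged tRNA activates the kinase GCN2, which phosphorylates the initiation factor eIF2. General translation then falls while the ATF4 mRNA is translated more, so that ATF4 activity is set largely by translation and protein stability, and its mRNA level is only a partial readout. ATF4 binds, often with a C/EBP partner, to composite elements in the promoters of synthetase, transporter and synthesis genes. Activated T cells use the same genes during growth, when mTORC1 also raises ATF4.

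The promoters of these genes could be inspected for that element. RefSeq promoter windows of GRCm38.p6, from 250 bases before to 50 bases after the start of transcription, were matched for 37 of the 48 members. No window was used for Cars, Hars, Lars, Nars, Rars, Vars, Wars, Slc7a5, Slc1a5, Slc38a1 and Eif4ebp1. The core of the composite element was searched as TGATGNAA, where N is any base, on both strands and with overlapping matches allowed. The letters were present in a window of 13 of these 37 members (35.1%). This compares with 1219 of 27025 genes with a window (4.51%) and with 233 of 8497 tested genes matched by symbol (2.74%). Part of the members had been named because they are known ATF4 targets, so this share describes the choice of genes and was not tested. The windows below are written in the direction in which the motif reads forward, with the motif in capitals and 10 bases on each side. They are shown for members that the results turn on and for other known targets of each class.
Asns, chr6:7693225-7693232, coding strand: cccagccacaTGATGAAActtcccgcac
Got1, chr19:43524700-43524707, opposite strand: gaggcttgtaTGATGCAAccaatgcaat
Pycr1, chr11:120643844-120643851, coding strand: gccctgtgtaTGATGCAAtgcacaaggc
Slc1a4, chr11:20332710-20332717, opposite strand: aggctggagaTGATGCAAcgcaggaggc
Slc7a11, chr3:50443672-50443679, coding strand: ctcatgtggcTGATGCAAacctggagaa
Gars, chr6:55037971-55037978, opposite strand: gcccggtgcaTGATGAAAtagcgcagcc
Yars, chr4:129189906-129189913, coding strand: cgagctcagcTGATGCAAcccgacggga
Atf3, chr1:191183436-191183443, opposite strand: gcggacttggTGATGCAAgtgcgagaag
Chac1, chr2:119351049-119351056, opposite strand: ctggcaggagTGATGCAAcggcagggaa
Trib3, chr2:152344039-152344046, opposite strand: cccgcccggcTGATGTAAacctgagcta

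Counted by gene, the motif was in a window of 5 of 13 synthetases, 2 of 6 transporters and 3 of 11 synthesis enzymes. It was in a window of 3 of 7 genes of the ATF4 and stress class. Slc7a1, Slc7a6 and Psat1 had 2 windows each. No window of Phgdh or Slc7a1 held these letters, which says only that this spelling is not in the 300 bases searched in each.

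The whole windows of Asns and Got1 are given on the coding strand, because these were the members with separate populations (every CCR8+ library above every CCR8- library) whose window held the motif. The capitals mark the motif, which reads as its reverse complement in Got1.
Asns, chr6:7693160-7693459, minus strand: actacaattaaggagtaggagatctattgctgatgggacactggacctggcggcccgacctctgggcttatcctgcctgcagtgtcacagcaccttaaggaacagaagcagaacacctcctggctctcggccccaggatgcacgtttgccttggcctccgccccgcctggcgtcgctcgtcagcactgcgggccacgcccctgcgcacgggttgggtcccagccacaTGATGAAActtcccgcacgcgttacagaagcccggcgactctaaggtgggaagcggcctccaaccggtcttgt
Got1, chr19:43524556-43524855, minus strand: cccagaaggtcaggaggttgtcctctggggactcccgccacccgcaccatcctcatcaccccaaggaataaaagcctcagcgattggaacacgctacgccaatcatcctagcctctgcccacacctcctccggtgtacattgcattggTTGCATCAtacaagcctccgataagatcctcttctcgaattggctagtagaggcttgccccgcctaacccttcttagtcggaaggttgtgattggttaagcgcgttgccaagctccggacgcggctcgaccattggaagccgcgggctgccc

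**Figure D1:**
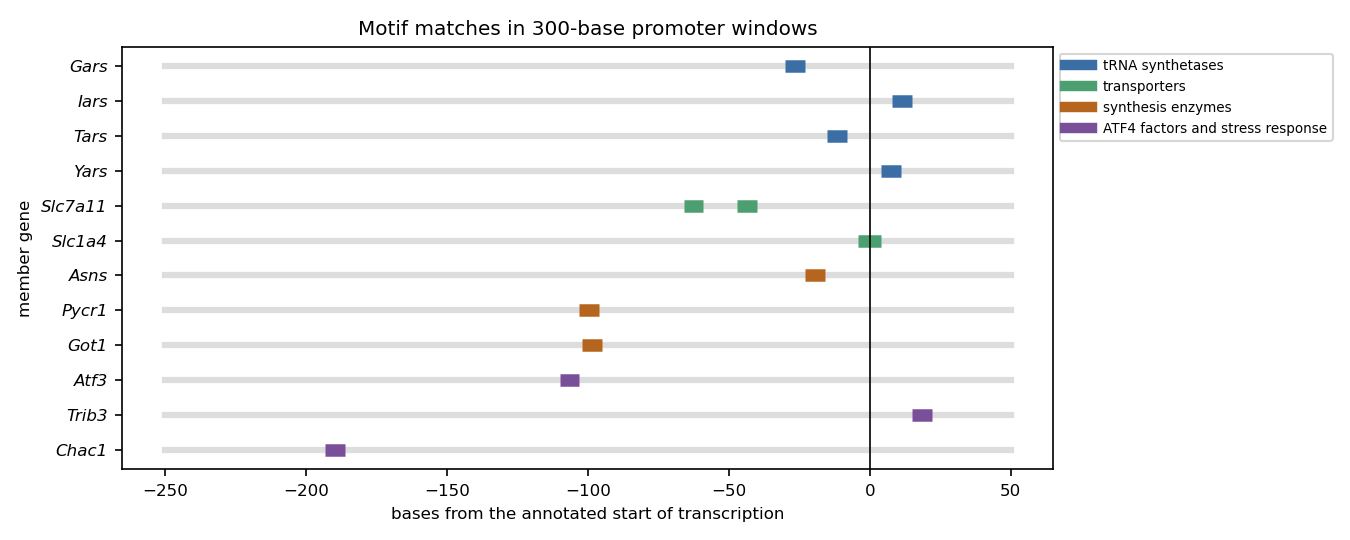
Matches to TGATGNAA (coloured bars, by class) in the RefSeq promoter windows (grey) of 12 of the 13 members that hold it, with the distance in bases from the annotated start of transcription on the x axis. Matches lie at -23 to -16 in Asns, -102 to -95 in Got1 and -4 to 4 in Slc1a4, and all others but that of Chac1 (-193 to -186) lie between -110 and 22.

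The deposited values are read counts divided by 1 factor per library and are called normalized counts here. The libraries held between 12067780 and 17802628 recovered reads, and 3 reads corresponded to between 2.21 and 3.42 normalized counts. Values under that are not told apart from 0, and this limit covers counting error only. CCR8- replicate 1 stood apart: it had the fewest genes detected (8569, against up to 10882), and it lacked 242 genes that every other library held at 100 normalized counts or more. The same count was 44 and 36 for CCR8+ replicates 1 and 3, and 0 for the others. CCR8- replicate 1 was the lowest of the 8 libraries, or tied for the lowest, for 25 of the 48 members (52.1%) and for 41.2% of all tested genes. Ties at 0.0, as in Slc1a4 and Pycr1, are included. CCR8- replicate 1 was also the highest library for 4 members (8.33%) and for 22.8% of all tested genes. CCR8+ replicate 3 was the highest for 16 members (33.3%) and for 17.1% of all tested genes. Ccr8 itself, the transcript of the sorted receptor, was 1292.9 to 6213.9 in CCR8- and 6970.2 to 42507.6 in CCR8+ libraries, with the highest value in CCR8+ replicate 3. All 8 T cell markers were detected in every library. The summed macrophage markers ranged from 28 to 58733 in CCR8- and from 2516 to 26287 in CCR8+ libraries, and all 9 listed genes had a fold change above 0. Both the lowest and the highest sum were CCR8- libraries (replicates 1 and 4). The exact permutation p of these genes ranged from 0.1429 (Csf1r) to 0.7429 (Adgre1). The summed melanoma markers ranged from 105 to 17214 and from 232 to 21698, and those of CD8 T and NK cells from 11352 to 37859 and from 6044 to 25576. Of the tested genes 0 of 5 melanoma, 0 of 4 CD8 T and NK cell and 0 of 4 fibroblast and endothelial markers had a fold change above 0. The part of these transcripts in the results was not tested.

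Most members had a higher mean in CCR8+ than in CCR8- Tconv cells, but none passed the test over all genes. Fold changes are given throughout as CCR8+ over CCR8- on the log2(normalized count + 1) scale, with their standard error (SE). This scale understates changes of genes with few reads, but 1 library near 0 can enlarge them. For Slc7a6 the log2 fold change was 1.935 on this scale and 0.275 by DESeq2, and for Shmt1 2.26 and 0.414. The median over the 48 members was 0.43, and 38 of 48 were above 0 (79.2%), compared with a median of 0.04 and 52.4% above 0 over all 11032 tested genes. At an adjusted p under 0.05 limma called 0 members and 0 of all tested genes (0.0%). Ccr8 itself, with separate populations, was not called either (log2 fold change 2.37, adjusted p = 0.829). The lack of calls is thus not particular to the members. The smallest adjusted p of a member was 0.829. At an unadjusted p under 0.05, 5 members were higher in CCR8+ cells (Asns, Eif4ebp1, Got1, Phgdh and Slc7a1) and 0 lower, compared with 2.8% of all tested genes higher and 2.29% lower. On the recovered reads edgeR called 0 members and 0 of all tested genes, and DESeq2 called 26 of the 2259 genes to which it gave an adjusted p (1.15%). It gave one to 19 of the 48 members and called 0 of these, but gave none to 29 members, Asns, Eif4ebp1, Slc7a1, Cars and Rars among them.

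All 4 CCR8+ libraries were above all 4 CCR8- libraries for 7 of 48 members (14.6%), compared with 2.37% of all tested genes. These were Cars, Rars, Slc7a1, Asns, Phgdh, Got1 and Eif4ebp1. The opposite order was found for 0 members and for 2.03% of all tested genes. For each of the 7 the exact two-sided permutation test over the 70 assignments of libraries to populations gave p = 0.0286, the smallest value that 4 against 4 allows. Separate populations always give this p, here and below, so it restates the order of the libraries and is no further support. Leaving out libraries cannot make separate populations overlap, so these 7 stay separate in such settings by design and only further genes can join. Without CCR8- replicate 1 no member joined the 7, with 3.5% of tested genes. Without both CCR8- replicate 1 and CCR8+ replicate 3 it was 8, the same 7 and Farsa, with 5.61% of tested genes. With TMM factors or quantile normalization it was 6, in both cases without Phgdh, with 2.3% and 2.11% of tested genes. When each library was instead scaled to a total of 1000000, the count was 3 (Asns, Got1 and Eif4ebp1), with 1.77% of tested genes.

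**Figure D2:**
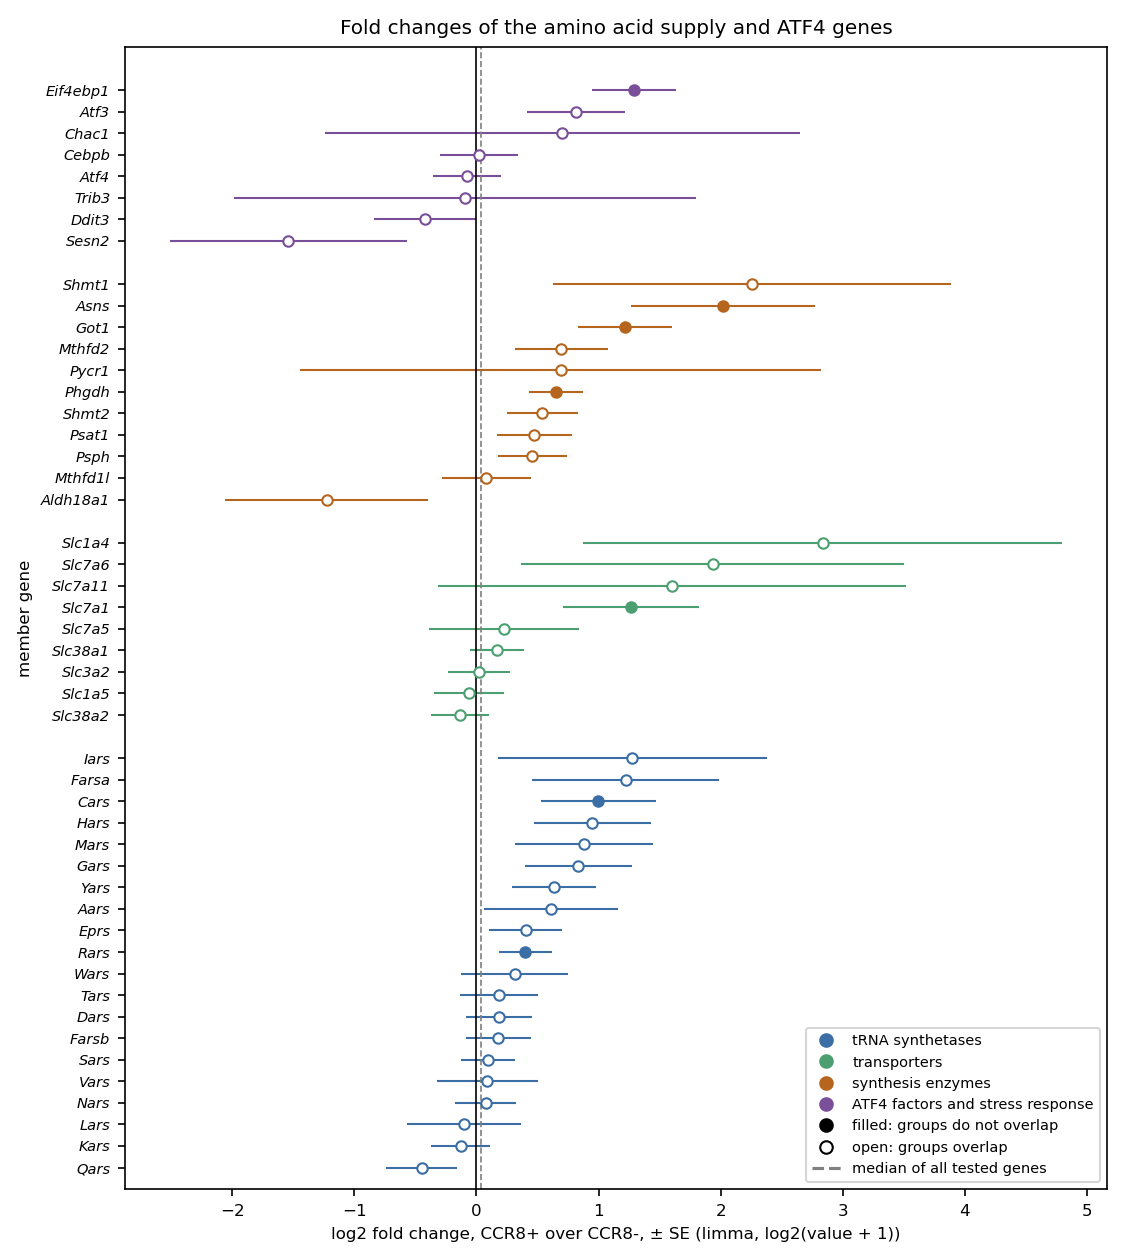
Log2 fold change (CCR8+ over CCR8-) with its standard error from limma for each of the 48 members, grouped by class, where filled points mark members whose 4 CCR8+ libraries are all above the 4 CCR8- libraries. Points lie to the right of 0 for 38 of 48 members, the 7 filled points among them, and the longest bars belong to genes with zeros such as Pycr1, Slc1a4 and Slc7a11.

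Among the factors of the response, the transcript of ATF4 itself did not separate the populations. Atf4 had 3210.2, 4823.1, 4206.9 and 6145.3 normalized counts in CCR8- replicates 1 to 4 and 2689.0, 5216.1, 4241.3 and 5476.2 in CCR8+ replicates 1 to 4. The ranges overlapped almost entirely, and replicate 1 was the lowest of its population in both. The log2 fold change was -0.07 (SE 0.28, adjusted p = 0.964, exact permutation p = 0.8). Its level per kilobase of exon, 1949 in CCR8- and 1868 in CCR8+ cells, was close to that of Cebpb (1947 and 1936), which encodes a C/EBP factor that pairs with ATF4. Cebpb, which shares 20.7% of its exonic bases with a transcript of the opposite strand, had a log2 fold change of 0.02 (SE 0.32).

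Atf3, an ATF/CREB family factor that ATF4 can induce, had 744.7, 1397.3, 1433.3 and 2847.2 normalized counts in CCR8- and 1895.7, 2151.3, 4566.3 and 2214.5 in CCR8+ cells. CCR8- replicate 4 was above 3 of the CCR8+ libraries, and the other CCR8- libraries were below all of them. Its fitted log2 fold change was 0.82 (SE 0.40, adjusted p = 0.838, exact permutation p = 0.1429). It was 0.50 without CCR8- replicate 1, 0.54 without CCR8+ replicate 3 and 0.22 without both.

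Eif4ebp1 encodes 4E-BP1, a repressor of cap-dependent translation and a target of both ATF4 and mTORC1, which phosphorylates the protein. It had 503.3, 735.0, 400.0 and 1200.4 normalized counts in CCR8- and 1542.3, 1341.0, 1976.4 and 1556.4 in CCR8+ cells. The lowest CCR8+ library was thus above the highest CCR8- library, and the 4 CCR8+ values lay closer together than the CCR8- values. The means were 709.7 ± 356 and 1604 ± 267 (SD, n = 4), and the log2 fold change of 1.29 (SE 0.34) had the smallest adjusted p of the members (0.829, exact permutation p = 0.0286). It was 1.06 without CCR8- replicate 1 and CCR8+ replicate 3.

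Sesn2 had the opposite direction. It encodes sestrin 2, a stress-induced leucine sensor that restrains mTORC1. Its values were 296.5, 146.3, 153.5 and 62.5 in CCR8- and 20.5, 109.2, 59.3 and 40.9 in CCR8+ cells. Each CCR8+ library was below the CCR8- library of the same number, but CCR8- replicate 4 fell within the CCR8+ range. The log2 fold change was -1.54 (SE 0.97, adjusted p = 0.838, exact permutation p = 0.0571), on 730 reads in the CCR8- and 248 in the CCR8+ libraries.

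The other targets did not share a direction. Ddit3, which encodes the pro-apoptotic factor CHOP, was at -0.42 (SE 0.42), with 447.1 to 1333.6 normalized counts in CCR8+ and 655.0 to 1831.9 in CCR8- cells. In the annotation 10.9% of its exonic bases are shared with other transcripts, among them Mars on the opposite strand, and the use of strand in the counting is not given in the sources used here. Trib3, a pseudokinase that feeds back on ATF4, was near 1 read in replicate 1 of both populations and between 57.0 and 325.6 elsewhere, with a log2 fold change of -0.10 (SE 1.89). Chac1, which encodes an enzyme that degrades glutathione, ranged from 0.0 to 72.7 and from 0.8 to 136.7, with a log2 fold change of 0.70 (SE 1.95). Of the 8 genes of this class, 4 were above and 4 below 0, with a median of -0.03, and 1 had separate populations. In CCR8- cells 6 of the 8 were highest in replicate 4, the CCR8- library with the highest summed macrophage (58733) and melanoma markers (17214). The part of other cells in these values was not tested.

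The cationic amino acid carrier was the member of the transporter class with separate populations. Slc7a1 encodes CAT1, which imports arginine and lysine. It had 74.9, 313.1, 321.0 and 343.0 normalized counts in CCR8- and 357.7, 674.3, 743.6 and 489.2 in CCR8+ cells. CCR8+ replicate 1 was only just above CCR8- replicate 4, and CCR8- replicate 1 was far below the other CCR8- libraries. On the log2 scale the difference was 1.27 (SE 0.56, adjusted p = 0.838, exact permutation p = 0.0286). It was 0.74 without CCR8- replicate 1 and 0.59 without CCR8+ replicate 3 as well.

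Transcripts of the leucine exchanger were at like levels in both populations. Slc3a2, the heavy chain CD98 that carries several light chains to the cell surface, was the highest of the 9 transporters per kilobase of exon (3055 in CCR8- and 3153 in CCR8+ cells). Its normalized counts were 12503.8, 9639.7, 8708.6 and 12279.3 in CCR8- and 8959.7, 8113.8, 13364.8 and 14068.8 in CCR8+ cells. The lowest library and the 2 highest were CCR8+, and the log2 fold change was 0.02 (SE 0.25, adjusted p = 0.992, exact permutation p = 0.9143). Slc7a5, the LAT1 light chain that exchanges glutamine for leucine and other large neutral amino acids, had 775.2, 209.5, 910.5 and 171.5 in CCR8- and 655.0, 329.2, 769.8 and 284.6 in CCR8+ cells. Replicates 1 and 3 were the higher ones in both populations, and the log2 fold change was 0.22 (SE 0.62, exact permutation p = 0.7143). The direction of both genes turned under several alternatives, which are given with the processing.

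The 3 largest fold changes among transporters belonged to genes with zeros or nearly so. Slc1a4, the neutral amino acid carrier ASCT1, was at 0.0, 30.9, 0.0 and 10.2 in CCR8- and at 1.1, 57.1, 293.1 and 25.2 in CCR8+ cells. It was higher in CCR8+ cells in all 4 same-numbered pairs, but in pair 1 by about 1 read, and CCR8+ replicate 3 alone, at 293.1, held most of its reads. Its log2 fold change was 2.84 (SE 1.96, exact permutation p = 0.1714) on 51 and 355 reads in all, and it was 1.76 without CCR8+ replicate 3 and 1.05 without CCR8- replicate 1 as well. Slc7a6, a light chain of SLC3A2 that exchanges cationic for neutral amino acids, was at 1.0 in CCR8- replicate 1 and at 482.8 to 781.6 in the 7 other libraries. Its log2 fold change of 1.93 (SE 1.57, exact permutation p = 0.7429) was -0.12 without that library. Slc7a11, the cystine carrier xCT, had the lowest mean of the members (24.0 normalized counts over the 8 libraries) and was at 86.5 and 70.7 in CCR8+ replicates 1 and 3 but at 16.2 or less elsewhere. Its log2 fold change was 1.60 (SE 1.92, exact permutation p = 0.4286). With 1 library left out it ranged from 0.72 without CCR8+ replicate 1 to 2.87 without CCR8+ replicate 2. Without both CCR8- replicate 1 and CCR8+ replicate 3 it was 0.41. The next lowest means were those of Pycr1 (29.2), Slc1a4 (52.2) and Chac1 (61.3), and no member lay just outside the limit of 10.

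The remaining transporters differed less. Slc1a5, the glutamine carrier ASCT2, was second in level per kilobase (680 and 649) with a log2 fold change of -0.06 (SE 0.29). Slc38a1 and Slc38a2, the glutamine carriers SNAT1 and SNAT2, were at 0.17 (SE 0.22) and -0.14 (SE 0.23). Of the 9 transporters 7 were above 0, with a median of 0.22, and 2 were higher in all 4 same-numbered pairs (Slc7a1 and Slc1a4).

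The synthesis enzymes had the highest median of the 4 classes, and 10 of 11 were above 0 (median 0.65). Asns, asparagine synthetase, a textbook target of ATF4, had 43.3, 503.5, 220.2 and 541.7 normalized counts in CCR8- and 584.7, 659.2, 2145.2 and 868.7 in CCR8+ cells. CCR8+ replicates 1 and 2 were not far above CCR8- replicate 4, while CCR8+ replicate 3 was far above and CCR8- replicate 1 far below the other libraries. The means were 327 ± 237 and 1064 ± 730 (SD, n = 4), with a log2 fold change of 2.02 (SE 0.76, adjusted p = 0.838, exact permutation p = 0.0286). Without CCR8- replicate 1 the log2 fold change was 1.23, and without CCR8+ replicate 3 as well it was 0.82.

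Got1, cytosolic aspartate transaminase of the malate-aspartate shuttle, was the highest synthesis enzyme per kilobase (1297 in CCR8- and 3368 in CCR8+ cells). Its normalized counts were 2118.8, 3556.7, 3310.5 and 4190.8 in CCR8- and 4313.4, 5848.4, 16912.7 and 7127.5 in CCR8+ cells. The gap between the populations was narrow, between CCR8- replicate 4 and CCR8+ replicate 1, and CCR8+ replicate 3 was again the highest library. The log2 fold change was 1.22 (SE 0.38, adjusted p = 0.838, exact permutation p = 0.0286). DESeq2 gave an adjusted p of 0.052, the smallest among the 19 members to which that tool gave one. Without CCR8- replicate 1 and CCR8+ replicate 3 the log2 fold change was 0.62.

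Serine synthesis and the one-carbon enzymes were all above 0. Phgdh, which encodes the first enzyme of serine synthesis from glycolysis, had 1717.9, 2302.8, 3026.3 and 1868.2 normalized counts in CCR8- and 3038.1, 3267.2, 3937.9 and 3486.3 in CCR8+ cells. CCR8- replicate 3 was just below CCR8+ replicate 1, while the other libraries were well apart, and the populations overlapped under TMM factors, quantile normalization and scaling to a total of 1000000. Its log2 fold change of 0.65 (SE 0.22, adjusted p = 0.838, exact permutation p = 0.0286) was 0.47 without CCR8- replicate 1 and CCR8+ replicate 3. The next steps of serine synthesis, Psat1 and Psph, were at 0.47 (SE 0.31) and 0.46 (SE 0.28), each higher in 3 of 4 same-numbered pairs. Shmt2 and Mthfd2, the mitochondrial enzymes that move the carbon of serine onto folate, were higher in all 4 pairs, with log2 fold changes of 0.54 (SE 0.29) and 0.70 (SE 0.38) and overlapping populations (exact permutation p = 0.1143 for both). For Mthfd2, CCR8- replicate 1 was at 367.4 normalized counts and the other CCR8- libraries were at 1058.5 to 1261.4. Mthfd1l, the mitochondrial step that releases formate, was at 0.08 (SE 0.37). Over these enzymes and Shmt1, 7 in all, the median was 0.54.

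Shmt1, the cytosolic hydroxymethyltransferase, had the largest fold change of the class but on the strength of 1 library. It was at 0.0, 140.4, 571.9 and 198.7 in CCR8- and at 321.0, 313.2, 299.9 and 278.6 in CCR8+ cells. The CCR8+ values were nearly level, and the CCR8- values lay on both sides of them. Its log2 fold change of 2.26 (SE 1.63, exact permutation p = 0.3143) was 0.26 without CCR8- replicate 1. Proline synthesis had no common direction. Aldh18a1, its first enzyme, was at 836.3, 501.3, 817.5 and 438.4 in CCR8- and at 31.3, 615.5, 484.7 and 518.8 in CCR8+ cells, where replicate 1 alone was below every other library (log2 fold change -1.23, SE 0.83, exact permutation p = 0.2571, and -0.21 without that library). Pycr1, the last enzyme, was at 0.0 in 4 libraries, 2 of each population, and at 167.6 in CCR8+ replicate 3.

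**Figure D3:**
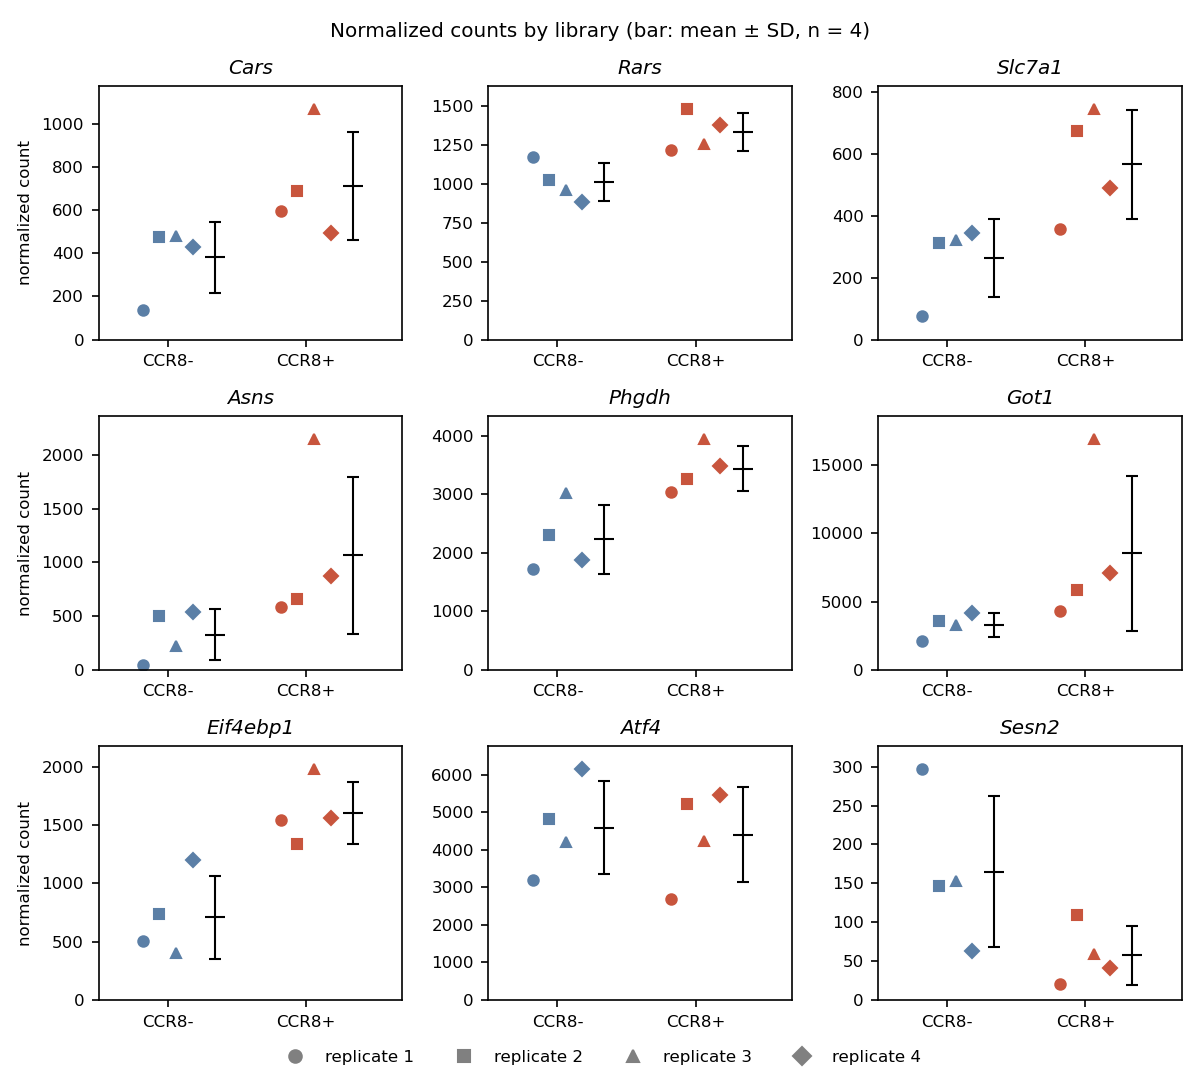
Normalized counts in each library for the 7 members with separate populations and for Atf4 and Sesn2, with replicates by symbol and the mean ± SD of 4 libraries beside them. CCR8+ replicate 3 (triangle) is the highest library of Cars, Slc7a1, Asns, Phgdh, Got1 and Eif4ebp1, CCR8- replicate 1 (circle) is the lowest of Cars, Slc7a1, Asns, Phgdh and Got1, and Atf4 overlaps.

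The tRNA synthetases load each amino acid onto its tRNA. Of the 20 cytosolic members, 17 were above 0, with a median of 0.36 and a range from -0.45 to 1.28. Cars, which loads cysteine, had 137.9, 475.6, 481.6 and 428.2 normalized counts in CCR8- and 594.4, 689.4, 1068.6 and 493.6 in CCR8+ cells. CCR8+ replicate 4 was only slightly above CCR8- replicates 2 and 3. This was a log2 fold change of 0.997 (SE 0.47, adjusted p = 0.838, exact permutation p = 0.0286). It was 0.56 without CCR8- replicate 1 and 0.35 without CCR8+ replicate 3 as well. In the annotation 3.21% of the exonic bases of Cars lie in another transcript.

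Rars, which loads arginine, was the separate member with the smallest fold change. It had 1174.1, 1026.8, 962.3 and 885.9 normalized counts in CCR8- and 1215.9, 1479.5, 1252.2 and 1379.7 in CCR8+ cells. Here CCR8- replicate 1 was the highest CCR8- library, and CCR8+ replicate 3 was not the highest CCR8+ library. The log2 fold change was 0.40 (SE 0.22, adjusted p = 0.838, exact permutation p = 0.0286), and it was 0.47 without CCR8- replicate 1 and 0.43 without CCR8+ replicate 3.

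Farsa and Iars had larger fold changes with overlapping populations. Farsa, the alpha subunit of the phenylalanine enzyme, was at 70.9, 1124.6, 1042.1 and 1044.9 in CCR8- and at 1895.7, 1184.0, 1032.1 and 1127.3 in CCR8+ cells, so that its log2 fold change of 1.22 (SE 0.76, exact permutation p = 0.1714) was 0.25 without CCR8- replicate 1. Its partner Farsb, the beta subunit, was at 0.18 (SE 0.26). Iars, which loads isoleucine, was at 8.9, 332.2, 508.8 and 243.0 in CCR8- and at 165.4, 492.1, 491.5 and 349.1 in CCR8+ cells. For Iars the log2 fold change of 1.28 (SE 1.10, exact permutation p = 0.4857) was -0.01 without CCR8- replicate 1. In each of these the low CCR8- replicate 1 set the size of the fold change.

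The other 16 synthetases were spread around these values. Gars (glycine) and Hars (histidine), named here after their values were seen, were higher in all 4 same-numbered pairs, with log2 fold changes of 0.84 (SE 0.44, exact permutation p = 0.0571) and 0.95 (SE 0.48, exact permutation p = 0.0857). Mars, Yars and Aars, which load methionine, tyrosine and alanine, were at 0.88, 0.63 and 0.61. In CCR8- replicate 1, Gars, Hars, Mars, Yars and Aars were at 430.5, 280.7, 116.2, 429.5 and 145.8, below every other library. Their log2 differences were 2.036, 3.159, 2.633, 1.198 and 1.983 in pair 1. In the other pairs they were at most 0.461, 0.368, 0.734, 0.758 and 0.525. Within CCR8- cells that replicate was the lowest library for 13 of the 20 synthetases and the highest for 5. Eprs, the fused glutamate and proline enzyme, was at 0.40, Wars (tryptophan) at 0.31, and Dars (aspartate), Tars (threonine), Sars (serine), Vars (valine) and Nars (asparagine) were between 0.08 and 0.19. Kars (lysine) and Lars (leucine) were at -0.13 and -0.10. Qars, which loads glutamine, was at -0.45 (SE 0.29), with CCR8- libraries between 905.2 and 929.1 and CCR8+ libraries between 502.9 and 979.2. Per kilobase of exon the synthetases were highest for Gars (477 and 740), Nars (569 and 616) and Hars (431 and 725) and lowest for Iars (51.8 and 71.0), and the spread of the libraries made neighbours in this order overlap.

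**Figure D4:**
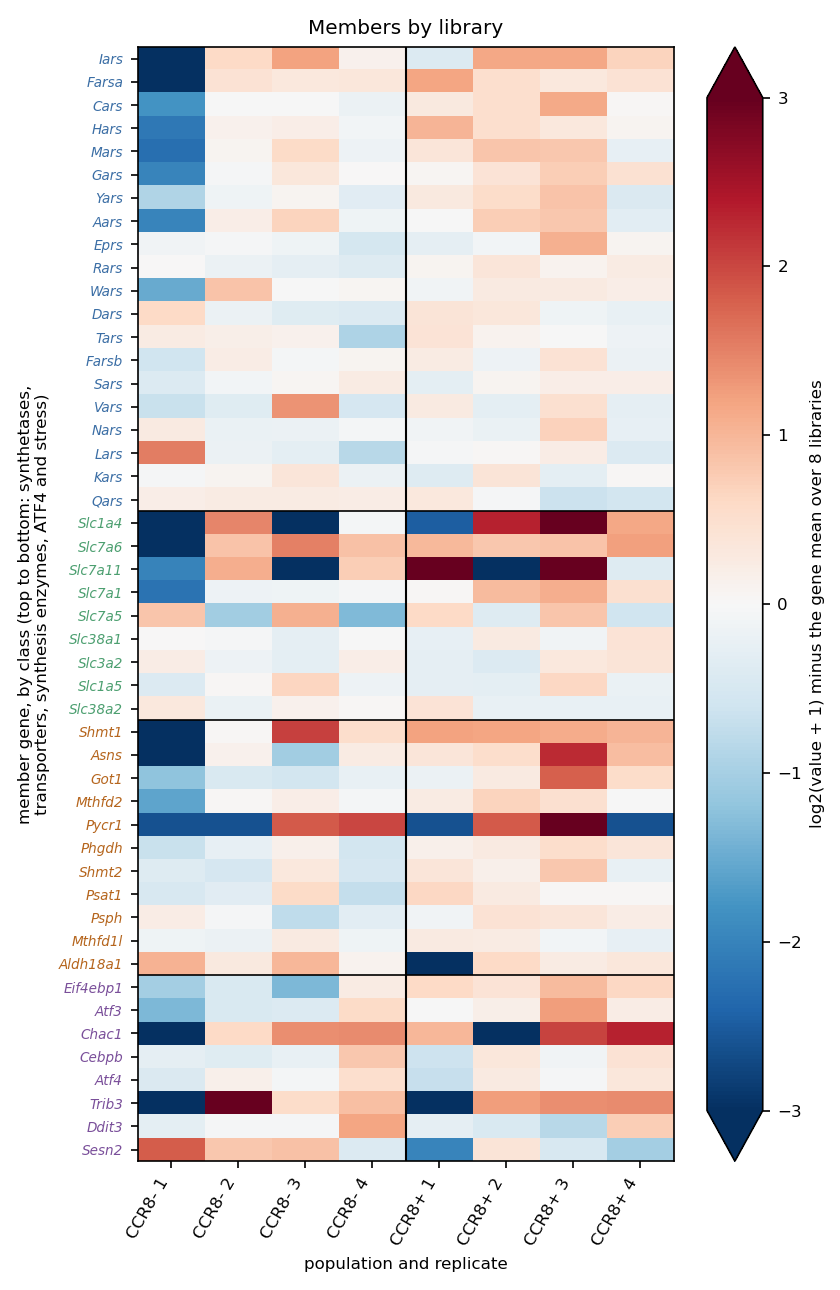
Log2(normalized count + 1) of the 48 members in each library minus the mean of the gene over the 8 libraries, ordered by class and fold change, with colors limited to 3 in either direction. CCR8- replicate 1 is blue for much of the upper part of each class, and CCR8+ replicate 3 is red for many of the same genes.

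The classes could be followed library by library as the median of these centred values. Over all members it was -0.63, -0.04, 0.12 and -0.04 in CCR8- and 0.06, 0.31, 0.51 and 0.14 in CCR8+ libraries. CCR8- replicate 3 was thus above CCR8+ replicate 1. For the synthesis enzymes it was -0.67, -0.17, 0.26 and -0.12 in CCR8- and 0.23, 0.43, 0.53 and 0.23 in CCR8+ libraries, where only CCR8- replicate 3 reached the CCR8+ range. For the synthetases it was -0.64, 0.03, 0.11 and -0.14 against 0.16, 0.35, 0.37 and -0.06. For the transporters it was -0.40, -0.04, -0.13 and -0.02 in CCR8- and 0.03, -0.23, 0.83 and 0.39 in CCR8+ libraries, so that CCR8+ replicate 2 was below all CCR8- libraries but replicate 1. For the ATF4 and stress class it was -0.73, 0.06, -0.04 and 0.69 in CCR8- and -0.45, 0.30, 0.46 and 0.53 in CCR8+ libraries, and the highest library was CCR8- replicate 4. The same median over all tested genes was -0.29 in CCR8- replicate 1 and 0.04 to 0.19 in the 7 others. The library with the lowest member levels thus also had the lowest median over all tested genes, although it was the highest library for 22.8% of them.

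Leaving out these libraries lowered the median of the members as a whole, which stayed above 0. Without CCR8- replicate 1 the median fold change was 0.26 over all members, 0.26 for the synthetases, 0.20 for the transporters and 0.40 for the synthesis enzymes, while the median of all tested genes moved from 0.04 to -0.08. Without CCR8- replicate 1 and CCR8+ replicate 3 these medians were 0.18, 0.15, 0.26 and 0.32, with -0.05 over all tested genes. The ATF4 and stress class lay at -0.41 and -0.30 in these settings. Differences between classes were not tested.

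**Figure D5:**
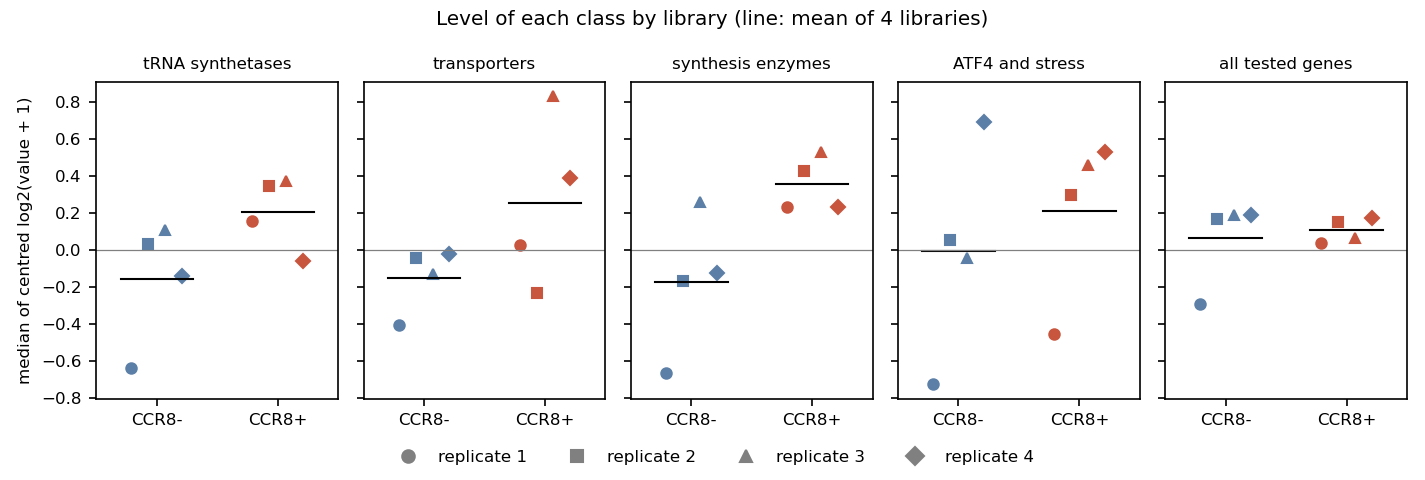
Median of the centred log2(normalized count + 1) values in each library, for each class and for all tested genes, with replicates by symbol and the mean of 4 libraries as a line. The lowest point of each panel is CCR8- replicate 1, and for the synthesis enzymes CCR8- replicate 3 at 0.26 is the only CCR8- library within the CCR8+ range of 0.23 to 0.53.

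Within the 4 same-numbered pairs, given as a description because the numbers are not stated to mark a mouse, 34, 33, 32 and 31 of the 48 members were higher in the CCR8+ library of pairs 1 to 4. The median differences were 0.78, 0.38, 0.26 and 0.20 on the log2 scale. The corresponding medians over all tested genes lay between -0.01 and 0.00. In all 4 pairs 12 of 48 members were higher in CCR8+ cells (25.0%), compared with 8.44% of all tested genes. They were the 7 separate members with Gars, Hars, Slc1a4, Shmt2 and Mthfd2. Lower in all 4 pairs was 1 member, Sesn2, compared with 8.1% of all tested genes. By class, 4 of 20 synthetases, 2 of 9 transporters, 5 of 11 synthesis enzymes and 1 of 8 genes of the ATF4 and stress class were higher in all 4 pairs.

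Genes around the members were examined in 7 further lists with 101 tested genes, none of which passed the test over all genes. Their median fold change was 0.14, and 63 of 101 were above 0. The populations were separate for 4 genes that were higher in CCR8+ cells (3.96%) and for 3 that were lower (2.97%), compared with 2.37% and 2.03% of all tested genes. The 17 mitochondrial synthetases had a median of 0.07 and 0 separate genes, and the 29 genes of mTORC1 and its amino acid sensing a median of -0.03 and 0 separate genes. The 3 scaffold genes of the synthetase complex had a median of 0.09, and 9 other amino acid transporters a median of 0.34, again with 0 separate genes in either list.

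The lists that act on ATF4 held separate genes in both directions. Of 16 genes for the eIF2 kinases, eIF2 and its exchange factor, with a median of 0.19, Eif2s3x, the gamma subunit of eIF2, was separate and higher (0.52, SE 0.40). Lower in every CCR8+ library were Gcn1l1, the partner of GCN2 (-1.45, SE 0.73), and Ppp1r15a (-0.60, SE 0.20). Ppp1r15a encodes GADD34, which ATF4 induces and which directs the dephosphorylation of eIF2. It had 10598.8, 10342.3, 13509.4 and 10408.8 normalized counts in CCR8- and 6858.7, 6994.5, 9074.5 and 6741.0 in CCR8+ cells. This gene was abundant and its libraries were well apart, in the direction opposite to most members (adjusted p = 0.838, exact permutation p = 0.0286).

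Among 11 further ATF4-linked genes, with a median of 0.49, the populations were separate for Jdp2, Stc2 and Cebpg. Jdp2, an AP-1 family factor that can pair with ATF proteins, had 386.1, 264.6, 400.0 and 615.6 normalized counts in CCR8- and 1174.8, 753.2, 2587.7 and 1253.5 in CCR8+ cells. Its log2 fold change was 1.71 (SE 0.41, adjusted p = 0.829, exact permutation p = 0.0286). Stc2, a secreted glycoprotein, was at 0.0 to 88.6 in CCR8- and at 142.7 to 682.0 in CCR8+ cells (3.40, SE 1.48). Cebpg, a C/EBP partner of ATF4, was lower in CCR8+ cells, at 352.5 to 654.6 against 712.3 to 807.5 (-0.50, SE 0.30).

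Among 16 enzymes of glutamine, folate and branched-chain amino acid use, with a median of 0.37, Got2 was separate. It encodes the mitochondrial aspartate transaminase, the partner of Got1 in the malate-aspartate shuttle. It had 1181.0, 1791.2, 2014.9 and 1256.1 normalized counts in CCR8- and 3821.7, 2344.4, 2903.6 and 2543.6 in CCR8+ cells. Unlike for Got1, CCR8+ replicate 1 was the highest library. Its fitted log2 fold change was 0.91 (SE 0.25, adjusted p = 0.829, exact permutation p = 0.0286). Both transaminases of the shuttle thus had separate populations in these libraries.

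Members with the motif printed above had a median fold change of 0.82, with 12 of 13 above 0, and members with a window without it a median of 0.18, with 17 of 24 above 0. Of the 4 separate members with a window, 2 held it (Asns and Got1). These figures are a description, since part of the members were chosen as ATF4 targets. Several of the 13 genes, such as Slc1a4, Slc7a11, Pycr1 and Iars, also have fold changes with a standard error above 1. The medians use all 8 libraries and were not computed without CCR8- replicate 1. Without that library the log2 fold change fell from 1.28 to -0.005 for Iars. It fell from 0.82 to 0.50 for Atf3 and from 2.02 to 1.23 for Asns.

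The separate members lie on different chromosomes in GRCm38 (GENCODE M21), whereas the authors named NCBIM37, an earlier build, so the positions serve only to locate them. Asns is on chromosome 6 from 7675169 to 7693254, Cars on chromosome 7 from 143557230 to 143600090, Eif4ebp1 on chromosome 8 from 27260329 to 27276674, Got1 on chromosome 19 from 43499752 to 43524605, Phgdh on chromosome 3 from 98313170 to 98339990, Rars on chromosome 11 from 35808381 to 35834506, and Slc7a1 on chromosome 5 from 148327410 to 148399904. Levels per kilobase above used the exon lengths of this annotation.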

How the data were processed

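RNA from sorted CCR8+ and CCR8- Tconv cells (4 libraries each) was amplified with a low-input kit. Per the study's methods, the authors removed adaptors (Cutadapt), used hisat2 for alignment to NCBIM37 and counted uniquely mapped reads only. The processing notes also name FastQC, HTSeq, DESeq2 and mm9. Versions, the use of strand and the step that chose the genes of the table are not given in the sources used here. The deposited unit is a signal, named FPM, although the values total 11469410 to 14394101 per library. Divided by what 1 read is worth, 100% of values are whole within 0.1 read, so read counts were recovered. The study's legend for this comparison names 4 biological replicates, all isolated on 1 day. Neither the legend nor the labels say that replicates are separate animals, and p-values measure the spread between these libraries. The sources differ on the harvest day, and none is stated here.

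Values were tested as log2(value + 1) with limma 3.58.1 and an intensity trend in R 4.3.3, for the 11032 genes whose mean reached 10, adjusted by Benjamini-Hochberg, with a threshold of 0.05. Exact permutation tests were two-sided over 70 assignments. A member is called separate where the 4 values of 1 population are all above the 4 of the other. The tests were run on simulated data first. Alternatives were pseudocounts of 0.1 and 10, other limits on the mean, other scalings, each library left out, the replicate number as a block, limma without the trend, and edgeR 4.0.16 and DESeq2 1.42.0 on the recovered reads. Leaving out CCR8- replicate 1 together with CCR8+ replicate 3 was added after seeing the data.

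Named are the members with separate populations, the 3 largest fold changes of each class, and Atf4, Asns, Slc7a5 and Slc3a2. The promoter matches of 1 member are not reported here. Other names were chosen after their values were seen. The members and all lists were chosen with earlier results of these data known. Some names (2) occur more than once, and 0 columns of per-sample values were left unused.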

Additional observations from a re-analysis of the deposited data

Results flagged for a closer look

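Within each population, the highest and the lowest of the 4 libraries were compared with the rest by Dixon's ratio, for the 19 named genes and the 4 class levels, 46 groups in all. Chance alone marks about 1 in 20 groups that are independent and not chosen by their values, and 4 were marked. Most of the named genes were chosen by their values and all share the same 8 libraries, so this rate does not apply to them. In CCR8- replicate 1, Cars (137.9 normalized counts), Farsa (70.9) and Slc7a1 (74.9) lay far below the other CCR8- libraries, which were between 428.2 and 481.6, between 1042.1 and 1124.6 and between 313.1 and 343.0. In CCR8+ replicate 3, Atf3 (4566.3) lay far above the other CCR8+ libraries, which were between 1895.7 and 2214.5. These libraries also lacked 242 and 36 genes that every other library held at 100 normalized counts or more.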

How the results depend on the processing

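Of 416 values of the 19 named genes under 22 alternatives, 397 kept their direction and side of the threshold, and 14 genes kept their direction throughout. No member was called (DESeq2 without the block gave an adjusted p to 19), except Got1 by DESeq2 with the replicate block (adjusted p = 0.0277, log2 fold change 1.20), which made 1 member called higher. Samples share only a number: same-numbered deviations correlated by 0.068, 0.138, 0.108 and 0.217, CCR8- replicate 1 correlated best with CCR8+ replicate 3 (0.095), and over all genes the block moved the calls from 0 to 1 with limma and from 26 to 124 with DESeq2. With each library left out, separate members numbered 7 to 12 higher (12 without CCR8- replicate 3) and 0 to 2 lower (2, Qars and Slc38a2, without CCR8+ replicate 1), and the median fold change ranged from 0.183 to 0.619 for transporters (highest without CCR8- replicate 3) and from -0.409 to 0.384 for the ATF4 and stress class. The count of higher members could not fall below 7 with a library left out, since this cannot make separate populations overlap. Scaling to 1000000 gave 3 separate higher. Without both CCR8- replicate 1 and CCR8+ replicate 3 there was 1 separate lower member (Slc1a5), and the synthesis enzymes had a median of 0.320. Directions turned for Iars (-0.005 to 1.892 without 1 library, lowest without CCR8- replicate 1, and -0.177 without both), Slc7a6 (-0.116 to 2.759 and -0.077 likewise), Slc7a5 (-0.182 to 0.619 without 1 library, -0.023 by edgeR, -0.022 by DESeq2), Slc3a2 (-0.105 to 0.159 without 1 library, -0.004 without both, -0.049 scaled to 1000000, -0.068 with quantile normalization) and Atf4 (-0.234 to 0.146 without 1 library). The cause was not tested. Genes with few reads, such as Slc7a11 and Pycr1, had too few for a fold change to be read.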
